A study of Mus musculus with 10 samples.

Results

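Coding exons that lie away from gene starts were examined in the spermatozoal methylomes of 10 male C57Bl/6 mice. A CpG was taken as a member when it lay on an autosome, had 10 or more reads in each of the 10 animals after the reads of both strands were summed, fell inside a coding sequence feature of a protein-coding gene (GENCODE annotation of mm10) and was more than 2 kb from the start of any annotated gene. Of 892267 autosomal CpGs with this coverage, 65911 were members. They lay in 13246 coding exons of 7140 genes, and 8026 of these exons held 3 or more of them. A further 88144 CpGs of coding exons lay within 2 kb of a gene start, and 131551 CpGs lay in introns away from gene starts; both served as comparison.

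The P-generation comprised 2 vehicle control animals (C14 and C8), which received 7.5% DMSO in phosphate buffered saline, and 3 decitabine treated animals (D10, D11 and D13), which received 0.1 µg/g decitabine in the same vehicle. Treatment started at 7 weeks of age and consisted of 3 intraperitoneal injections a week over 7 weeks. The F3-generation comprised 2 untreated descendants of the vehicle control (F3C30 and F3C9) and 3 untreated descendants of the decitabine treated males (F3D1, F3D31 and F3D7), whose mothers in every generation were untreated. By the study's pedigree F3C30 descended from C14, F3C9 from C8, F3D1 and F3D31 both from D10, and F3D7 from D11, while D13 had no descendant among the animals. The 3 F3 descendants of treated males thus had 2 treated ancestors, and animals of the generations were related. Spermatozoa came from minced, filtered epididymides. In reduced representation bisulfite sequencing (RRBS), DNA is cut with MspI at CCGG, so that measured CpGs lie near such sites and CpG-rich sequence is over-represented.

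Methylated cytosines in a CpG are copied at each cell division by the maintenance methyltransferase, and decitabine, a cytidine analogue, traps this enzyme once it is built into DNA. In spermatozoa most of the genome outside CpG islands is methylated, including the bodies of genes, whereas CpG islands, stretches rich in CpG that often hold promoters, are mostly free of methylation. Methylated CpGs are prone to mutation, and CpG-dense sequence in a genome is therefore mostly sequence that stays unmethylated in the germ line.

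The following stretches show what such exons look like. Each is given 5′ to 3′ on the coding strand from GRCm38, with measured member CpGs in capitals, and all lie within coding sequence. The first pair contrasts a CpG-dense exon that was unmethylated in every animal with a long exon that was methylated in every animal, from Sp8, a transcription factor of limb and brain development (chr12:118849277-118849403, plus strand), and Plec, which encodes the cytoskeletal linker plectin (chr15:76174783-76174898, minus strand).
Sp8: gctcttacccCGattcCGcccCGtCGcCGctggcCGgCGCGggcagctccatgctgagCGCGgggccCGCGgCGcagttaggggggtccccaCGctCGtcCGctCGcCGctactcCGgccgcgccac
Plec: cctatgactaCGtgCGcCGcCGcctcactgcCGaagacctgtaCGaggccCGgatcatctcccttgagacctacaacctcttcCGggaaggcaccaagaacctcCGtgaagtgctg
The Sp8 stretch of 127 bases held 19 measured CpGs and the Plec stretch of 116 bases held 9. The remaining stretches come from exons with large differences between the groups of a generation, which are described further on: Inppl1 (chr7:101823914-101823986, minus strand) and Zfp180 (chr7:24105590-24105741, plus strand) in the P-generation, St6galnac6 (chr2:32615115-32615176, plus strand) and Stard3 (chr11:98379973-98380036, plus strand) in the F3-generation, and Ppargc1a (chr5:51474143-51474305, minus strand) in both.
Inppl1: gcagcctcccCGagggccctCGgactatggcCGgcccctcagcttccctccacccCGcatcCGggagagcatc
Zfp180: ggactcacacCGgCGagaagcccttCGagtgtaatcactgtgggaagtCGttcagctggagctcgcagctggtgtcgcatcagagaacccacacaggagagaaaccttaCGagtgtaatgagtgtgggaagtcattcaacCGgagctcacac
St6galnac6: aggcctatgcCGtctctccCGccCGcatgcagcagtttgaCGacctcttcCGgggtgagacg
Stard3: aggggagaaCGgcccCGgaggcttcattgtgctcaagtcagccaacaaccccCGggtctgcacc
Ppargc1a: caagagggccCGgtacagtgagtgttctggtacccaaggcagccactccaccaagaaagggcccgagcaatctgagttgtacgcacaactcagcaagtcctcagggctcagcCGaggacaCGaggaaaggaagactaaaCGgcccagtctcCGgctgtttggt

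The summed coverage of CpG cytosines was between 48903817 in D13 and 115158278 in F3D1, and the median coverage of a member CpG was between 35 reads in D13 and 82 reads in F3D1. Sperm markers were read first, as CpGs within 500 bp of the gene start. Of 11 promoters listed as methylated on the maternal allele in somatic cells and unmethylated in sperm, 7 were covered. They were those of Peg3, Peg10, Nnat, Airn, Grb10, Zrsr1 and Inpp5f. Their mean level was between 9.1% in C14 and 17.7% in C8, with 17.5% in D11. Inpp5f was between 0.4% and 1.9% in every animal over 29 CpGs, so it set animals little apart and lowered the mean. Whether its gene start is methylated in somatic cells was not tested. The 7 covered promoters of 10 germ-cell genes (among them Dazl and Ddx4) averaged between 13.8% in F3D7 and 32.3% in D11, with 31% in C8 and 16.2% in C14, and 2 CpGs upstream of H19, which are methylated in sperm, were at 84.6% or more in each animal. After C8 and D11, F3C9 was highest on the first list, with 15.2%, and D10 on the second, with 28.2%, where F3C9 had 25.5%. C8 and D11 were thus the highest 2 animals in the mean of both lists. Single promoters did not all follow. Airn was at 0.0% in C8 and 3.0% in D11, the lowest of the 10 animals, against 18.4% in C14. Mael was at 9.9% in C8 against 16.4% in C14. The other promoters of both lists were higher in C8 than in C14. The CpGs upstream of H19 were at 100.0% in C8. The part of other cells in any result was not tested. Members of the same gene, exon or sequencing read are not independent, and animals were taken as the replicates, although F3D1 and F3D31 share an ancestor and the F3 animals are related to those of the P-generation.

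The mean methylation level of the member CpGs was 54.89% ± 0.59 (SD, n = 10 animals). It was 54.54% in C14 and 55.79% in C8, against 54.66% in D10, 54.99% in D11 and 53.90% in D13. In the F3-generation it was 54.34% in F3C30 and 55.47% in F3C9, against 55.58% in F3D1, 54.84% in F3D31 and 54.86% in F3D7. The groups overlapped in both generations. Decitabine minus vehicle control was -0.65 percentage points in the P-generation (exact permutation p = 0.5, two-sided) and 0.19 points in the F3-generation (exact permutation p = 0.9); with 3 animals against 2 the smallest p is 0.1. Without C8 the difference in the P-generation was -0.021 points, and without C14 it was -1.27 points. In the F3-generation the sign turned without F3C30, to -0.38 points, and without F3D1, to -0.057 points.

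Behind this mean stood 2 opposite states. Of the member CpGs, 24.63% had a median level over the 10 animals under 5% and 31.79% had one of 95% or more. Between 30.7% (D11) and 37.5% (F3C30) of the CpGs of an animal were under 20%, and between 43.6% (D11) and 48.8% (F3D1) were at 80% or more. The share in between was 24.2% in C8, 24.0% in D10 and 25.7% in D11, and between 14.5% and 21.2% in the other animals. At the 22366 CpGs with a median under 20%, the level of C8 and D11 was 6.4%, against 3.9% in C14. At the 31363 CpGs with a median of 80% or more, it was 92.8% in C8 and 92.4% in D11, against 94.8% in C14.

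**Figure D1:**
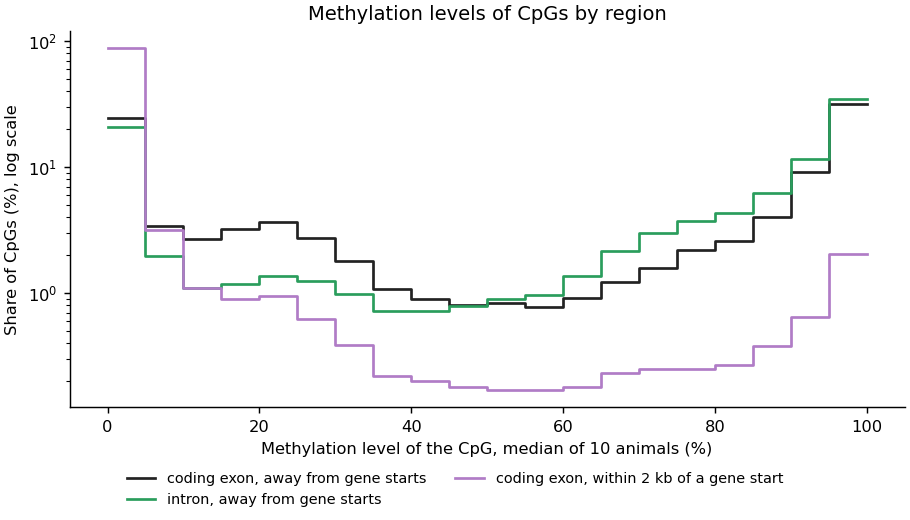
Share of CpGs (y axis, percent, log scale) by methylation level (x axis, median of the 10 animals, bins of 5 points) for coding exons away from gene starts, introns away from gene starts and coding exons within 2 kb of a gene start. Coding exons away from starts peak at both ends, with 24.63% of CpGs under 5% and 31.79% at 95% or more, whereas 87.67% of the CpGs near gene starts are under 5%.

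Coding exons away from starts were far more methylated than those near them, by 48.86 points on average (0.4 SD over 10 animals), and less methylated than introns away from starts, with a mean difference of -9.25 points (lower in 10 of 10 animals, exact sign-flip permutation p = 0.00195, the smallest that 10 animals can give; 0.00213 after Benjamini-Hochberg adjustment over 12 such comparisons). With transcript starts in place of gene starts the difference from introns was -16.69 points. The order depended on the sequence around the CpG. A CpG was called CpG-dense when the sequence 100 bases to either side of it had 50% GC or more and an observed over expected CpG ratio of 0.6 or more, which held for 29252 members (44.4%). Dense coding CpGs had a mean level of 27% (25.68% to 29.05% over the animals) and dense intron CpGs one of 17.43%, so that within dense sequence coding exons were the higher ones, by 9.57 points in 10 of 10 animals (exact sign-flip permutation p = 0.00195). In CpG-poor sequence the coding level was 77.15% (76.33% to 78.18%) and the intron level 77.84%, and the difference of -0.68 points, with 3 of 10 animals above 0, did not pass (exact sign-flip permutation p = 0.0898).

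Density divided the coding CpGs themselves more than any other feature examined. CpG-dense minus CpG-poor CpGs gave -50.16 points (1.34 SD over 10 animals; lower in 10 of 10, exact sign-flip permutation p = 0.00195). In the P-generation, CpG-poor coding sequence was at 77.25% in C14 and 77.12% in C8, against 76.34%, 76.35% and 76.33% in D10, D11 and D13. The groups did not overlap and differed by -0.85 points (exact permutation p = 0.1, the smallest possible). The F3-generation had 77.20% and 77.61% against 78.18%, 77.51% and 77.63%, a difference of 0.37 points with overlapping groups (exact permutation p = 0.4). Dense sequence differed by -0.40 points in the P-generation and -0.04 points in the F3-generation, with exact permutation p of 0.8 and 1.0.

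The place of a CpG within its codon also went with its level. The reading frame was taken from 1 representative transcript per gene, which placed 62706 members. The 24140 CpGs whose C is the first codon base, all of them in CGN codons for arginine, had a mean level of 65.23% (64.22% to 66.05%). CpGs with the C at the second base, NCG codons for serine, proline, threonine or alanine, had 48.85% (47.74% to 49.95%), and CpGs with the C at the third base, which run over into the next codon, had 50.88% (49.90% to 51.93%). The third base minus the first gave -14.35 points in the mean of 10 animals (lower in 10 of 10, exact sign-flip permutation p = 0.00195). Part of the classes' difference went with density, since the same difference was -11.16 points within CpG-dense and -4.79 points within CpG-poor sequence, each with 10 of 10 animals below 0.

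Exons differed by their order in the coding sequence. Inner coding exons had a mean level of 70.52% (69.72% to 71.45%), last coding exons 40.08% (38.59% to 42.35%), first coding exons of genes with several 25.67% (24.58% to 26.27%) and single coding exons 29.72% (27.99% to 32.78%). Last minus inner exons gave -30.44 points (lower in 10 of 10 animals, exact sign-flip permutation p = 0.00195), with -24.30 points within dense and -12.48 points within poor sequence. In inner exons the P-generation groups did not overlap, with 70.53% and 70.73% in C14 and C8 against 69.89%, 69.91% and 69.72% in D10, D11 and D13 (difference -0.79 points, exact permutation p = 0.1). In single exons C8 stood highest with 32.78%, against 28.20% in C14. Levels also climbed with distance from the nearest gene start, from 40.40% at 2 to 5 kb and 52.47% at 5 to 10 kb to 64.59% at 10 to 50 kb and 64.38% beyond. Members within 2 kb of the start of any annotated transcript, 37.1% of all, had a level of 45.83%, 14.42 points below the rest (lower in 10 of 10 animals).

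**Figure D2:**
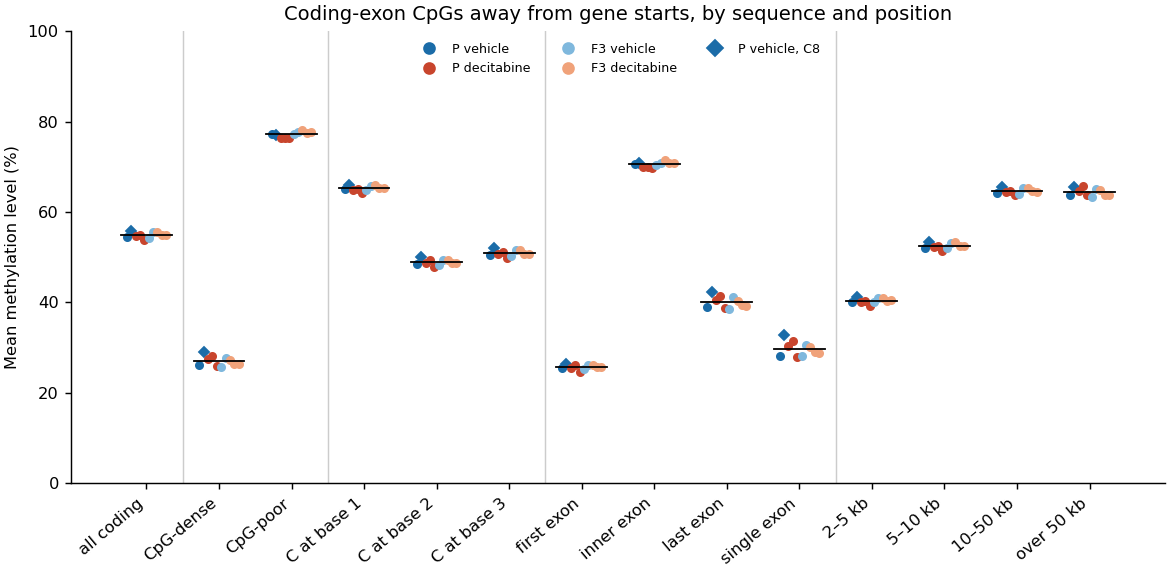
Mean methylation level (y axis, percent) of coding-exon CpGs away from gene starts by CpG density, codon base of the C, order of the exon and distance from a gene start (x axis). Each point is 1 animal, coloured by group, with C8 as a diamond and the mean of the 10 animals as a bar; animals lie within a few points of each other in each class, while classes span from 25.67% in first exons to 77.15% in CpG-poor sequence.

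By exon, 888 of the 8026 exons with 3 or more member CpGs (11.1%) were under 10% in all 10 animals, 2491 (31%) were over 90% in all 10, and 594 (7.4%) lay from 20% to under 80% in all 10. The unmethylated exons held a median of 11 member CpGs, with a median of 100% of them CpG-dense, and 64.5% had a transcript start within 2 kb, against 36.4% of all exons. The methylated exons held a median of 4 member CpGs, and 30.6% had such a start. The exons with the most member CpGs were nearly all dense and low. Fignl2, a fidgetin-like ATPase gene, held 180 CpGs in its single coding exon and was between 3.7% (C14) and 7.7% (D11). Sp8 held 138 and was between 0.6% and 1.4%, and Chadl, a matrix protein gene, held 119 and was between 0.5% and 1.2%. Zfp316, a zinc finger gene with 145 CpGs in its last coding exon, was between 9.5% in F3C30 and 26.6% in C8, and Dact3, whose product restrains Wnt signalling, held 116 and was between 5.1% and 12.1%, with C8 highest again.

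At the other end stood long exons of large proteins. Spen, a transcriptional repressor, was between 94.6% and 96.9% over 67 CpGs. Plec was between 95.7% and 97.8% over 61, and Shank2, a synaptic scaffold, between 93.2% and 96.7% over 43. Both states could occur in 1 gene: 89 genes had an exon under 10% and another over 90% in all 10 animals. Lrp1, a lipoprotein receptor, had the most exons with 3 or more members, 15, and their median levels ran from 68.8% to 100.0%. Ttn, which encodes the muscle protein titin, had 14, from 87.0% to 99.2%. Ryr1, the calcium release channel of skeletal muscle, had 11 exons from 0.9% to 96.9%, and Speg, a muscle kinase gene, had 11 from 4.1% to 98.8%.

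Gene groups, chosen by symbol, followed the same division. Members of 15 Hox genes, the homeobox genes that pattern the body axis, were between 3.4% and 4.8% over the animals, and 14 of their 19 exons were under 10% in all 10. Sox and Tbx transcription factor genes were between 14.8% and 16.2%, protocadherin genes between 12.8% (F3C30) and 21.7% (C8), and forkhead genes between 21.0% and 25%. C2H2 zinc finger genes, with 1957 CpGs of 149 genes the group with the most CpGs, were between 40.6% and 46.7%, with 10 exons under 10% and 43 over 90% among 140. Collagen genes were between 83.2% and 84.1%, axonemal dynein genes between 81.8% and 84.0%, and DNA methyltransferase and Tet genes, which write and remove the mark, between 82.2% and 85.1%. The share of CpG-dense CpGs was 88.0% in Hox, 60.0% in zinc finger and 13.7% in collagen genes. C8 had the highest level in the forkhead, Sox and Tbx, zinc finger, Wnt and Frizzled, protocadherin, cadherin, laminin and dynein groups.

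**Figure D3:**
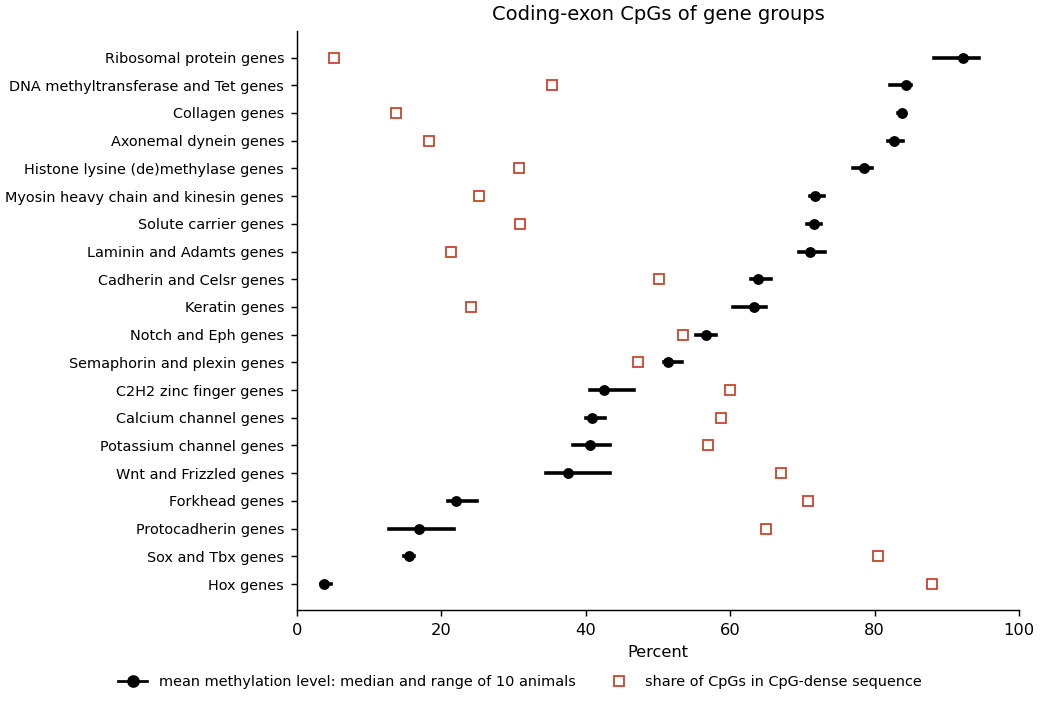
Coding-exon CpGs away from gene starts in 20 gene groups. Black points and bars give the median and range over the 10 animals of the group's mean methylation level (x axis, percent), and open squares the share of its CpGs in CpG-dense sequence; Hox genes have the lowest level, with a median of 3.7%, and ribosomal protein genes, with 39 CpGs, the highest, at 92.2%.

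Animals varied most at CpGs between the extremes. At the 13941 member CpGs whose median level was 20% to 80% after each CpG was thinned to 10 reads in each animal, so that counting error was equal, an animal lay on average 13.15 points from the median animal. C8 lay 20.60 points away, D11 14.68, F3C9 13.39, D13 12.80, D10 12.67, and the other 5 animals between 11.13 and 11.87. C8 stood apart in introns to the same degree, at 21.16 points. Spread in coding exons was 0.133 points below that in introns, with 8 of 10 animals below, which did not pass (exact sign-flip permutation p = 0.0625). By exon, the SD over the 10 animals had a median of 3.2 points, and of 2.9 without C8. It was 0.8 for exons under 10%, 1.9 for exons over 90% and 8.1 for those between 20% and 80% in all animals.

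**Figure D4:**
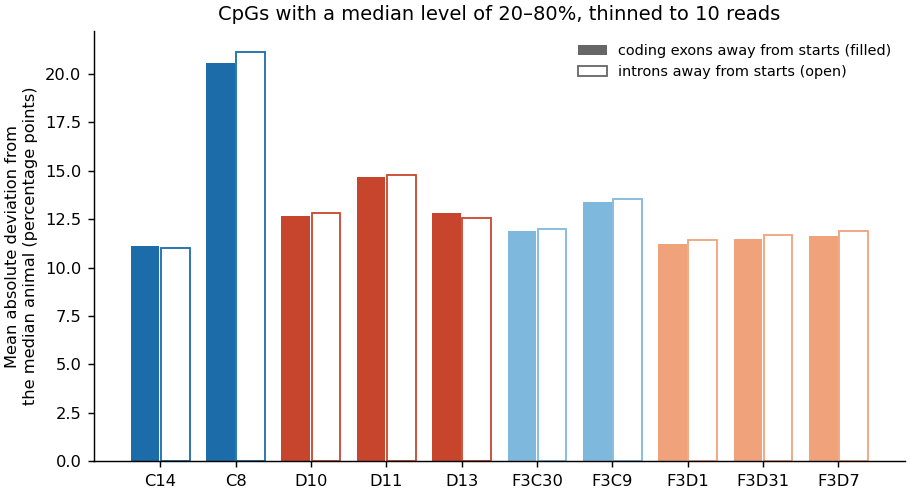
Mean absolute deviation of each animal from the median of the 10 animals (y axis, percentage points; bars coloured by group) at CpGs with a median level of 20% to 80%, each thinned to 10 reads, in coding exons (filled) and introns (open) away from gene starts. C8 lies at 20.60 points in coding exons, and the other 9 animals between 11.13 and 14.68.

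The 5 exons with the largest SD were those in which C8 was at or near 0% or 100%. In Tnfrsf9, a lymphocyte receptor gene, C8 was at 100.0% over 3 CpGs and the other animals between 10.4% and 64.3%. In Aurkb, the kinase of the chromosomal passenger complex, C8 was at 0.0% and the others between 49.7% and 86.8%, and in Actb, the gene of beta-actin, C8 was at 0.0% and the others between 31.4% and 78.8%. In Sdsl, a serine dehydratase-like gene, C8 was at 100.0% and the others between 8.6% and 39.7%, and in Avil, an actin regulator, C8 was at 96.4% and the others between 8.1% and 33.9%. The SD was 27.4 points in Tnfrsf9, 26.9 in Aurkb, 26.3 in Actb, 26.0 in Sdsl and 25.1 in Avil, and between 8.2 and 17.1 points without C8.

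Differences between decitabine and vehicle control groups were then examined CpG by CpG. A CpG counted as called where the pooled levels lay 25 or more points apart and a logistic model of the reads gave a q-value under 0.01. This model has no term for variation between animals. In the P-generation 412 member CpGs were higher after decitabine, 0.625% of members against 0.31% of all autosomal CpGs, and 506 were lower, 0.768% against 0.351%. In the F3-generation 153 were higher, 0.232% against 0.145% of all, and 99 lower, 0.15% against 0.066%. CpGs of introns away from starts were called at 1.21% in the P-generation and 0.416% in the F3-generation, where members were called at 1.39% and 0.382%. Of the 918 calls of the P-generation, 59.3% had a median level between 20% and 80%, as had 77.4% of the 252 of the F3-generation, although only 12182 of all members did. CpG-dense members were called at 1.24% and CpG-poor ones at 1.51% in the P-generation, and at 0.25% and 0.488% in the F3-generation. The groups did not overlap at 725 of the 918 and 196 of the 252, beside 77.4% and 78.6% of all called autosomal CpGs, which were picked for a difference between the same groups.

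The number of member CpGs called changed strongly with single animals. For the counts with 1 animal left out no share over all autosomal CpGs is given. Whether other CpGs changed alike is therefore not shown. Without C8, 418 member CpGs were called in the P-generation, and without C14, which leaves C8 as the lone vehicle control, 5129 were. Without F3C9, 76 were called in the F3-generation, and without F3C30 1384 were. With an overdispersion term for the variation between animals, 0 member CpGs were called in either generation. With this term 1358 and 1224 of the 65911 members had an unadjusted p under 0.05. Both are a smaller share than the 0.05 that this limit gives where no CpG differs. The test thus gave few small p-values, and its 0 calls cannot show that no CpG differs. On log2 ratios of single CpGs limma also called 0. It placed 5289 members at an unadjusted p under 0.05 in the P-generation and 2939 in the F3-generation. For these unadjusted counts no share over all autosomal CpGs is given. Of the 918 members called in the P-generation, 5 were also among the 252 of the F3-generation, 4 with the same sign and 1 with the opposite sign. Of all members 0.382% were called in the F3-generation, as were 0.211% of all autosomal CpGs and 1.56% of the autosomal CpGs called in the P-generation. At these 918 CpGs the size of the difference had a median of 29.8 points in the P-generation, which chose them, and of 5.8 points in the F3-generation.

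The CpG with the largest fall in the P-generation, among those with 20 or more reads in each animal and groups that do not overlap, lay in Arhgef18 (chr8:3452025). Its level was 62.5% in C14 (24 reads, 95% Wilson interval 42.7% to 78.8%) and 100.0% in C8 (29 reads), against 45.8% in D10, 20.7% in D11 and 23.1% in D13, and 55.3% to 69.6% in the 5 F3 animals. The pooled levels of the P-generation differed by -53.9 points. The largest rise lay in Pklr (chr3:89143285), the pyruvate kinase gene of liver and red cells, with 43.5% in C14 and 0.0% in C8 (0 of 40 reads, upper Wilson bound 8.8%), against 47.7% in D10, 63.4% in D11 and 82.5% in D13. In the F3-generation the largest fall lay in St6galnac6 (chr2:32615155), a sialyltransferase gene, with 47.6% and 69.4% in F3C30 and F3C9 against 11.4%, 20% and 23.4% in F3D1, F3D31 and F3D7. The largest rise lay in Tnks1bp1 (chr2:85070935), which encodes a tankyrase-binding protein, with 45.0% and 16.0% against 78.6%, 46.7% and 65.4%. At each of the 4 CpGs the animals of the other generation differed by 3.5 points or less in the pooled reads. The intervals cover counting error only and take each read as an independent molecule, which was not tested. C8, whose bound is given, was also at or near 0% or 100% in each of the 5 exons with the largest SD.

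The 918 calls of the P-generation lay in 579 exons, and 75 exons held 3 or more, of which 72 held calls of 1 direction alone. At least 3 CpGs were lower in 43 of the 8026 exons, where 0.392% of all 14280 coding exon units held as many, and at least 3 were higher in 30, against 0.252% of all units. The 43 exons had a median exon difference of -21.2 points, and the groups did not overlap in 38 of them; without C8 the median was -18.4 points and 39 kept the direction, and without C14 it was -23.7 points and all 43 kept it. The 30 exons had a median difference of 12.1 points, 13.9 without C8 and 9.5 without C14, with 30 and 24 in the same direction. These medians describe exons picked by their calls. Groups that do not overlap must keep their direction when 1 control is left out. This fixed the direction in 38 of the 43 exons and in 18 of the 30. In the F3-generation 8 member exons held 3 or more calls, among them Kif19a, a kinesin gene, with 5. Of these exons 5 were higher and 3 lower. Of all 14280 units, 8 (0.056%) held as many higher calls and 4 (0.028%) as many lower calls.

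In several of the 43 exons both vehicle control animals and all 5 F3 animals lay together, apart from the 3 treated animals; these genes were named after their values were seen. The exon with the most calls, 14 of its 29 member CpGs, was the last coding exon of Fiz1, a zinc finger gene (chr7:5008018-5009205). It was at 88.3% in C14 and 91.9% in C8, against 70.2% in D10, 68.7% in D11 and 55.6% in D13, and between 85.6% and 90.5% in the 5 F3 animals. Rest, the repressor of neuronal genes (chr5:77267941-77268823), was at 86.8% and 96.0% in the vehicle control against 70.2%, 66.8% and 54.3%, and between 85.4% and 89.7% in the F3-generation. The treated animals were the lowest 3 of the 10 in both exons. Nr1h2, which encodes the oxysterol receptor LXR beta (chr7:44551600-44551859), was at 84.3% and 86.7% against 70.1%, 62.1% and 56.2%, with F3 animals between 81.3% and 87.7%. Vps18, part of a vesicle tethering complex (chr2:119292919-119294789), was at 84.0% and 90.3% against 68.3%, 68.7% and 62.7%, with F3 animals between 78.5% and 82.9%. Patz1, a zinc finger gene (chr11:3290614-3291884), lay lower in all animals, with 41.4% and 29.7% against 14.3%, 13.3% and 13.9%, and between 27.8% and 46.5% in the F3-generation. The differences without C8 were -23.5 points in Fiz1, -23.0 in Rest, -21.5 in Nr1h2, -17.4 in Vps18 and -27.6 in Patz1. In limma over all 10 animals their adjusted p-values were 0.38 in Fiz1, Rest and Nr1h2, 0.422 in Vps18 and 0.414 in Patz1, so that none passed. The exon of Zfp628 described next lies on the same stretch of chromosome 7 as Fiz1, near 5 Mb.

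At the level of exons, limma was fitted to the log2 ratio of an exon's methylated over unmethylated reads. With variation between animals estimated from all 10, it called 0 of the 8026 exons at an adjusted p under 0.05 in the P-generation (0.0% of all 14280 coding exon units, those near gene starts included), 0 in the F3-generation (0.0%) and 0 for the difference between the generations (0.0%). At an unadjusted p under 0.05 were 774, 269 and 511 of the 8026. The counts of the P- and F3-generation were 9.64% and 3.35% of members, beside 8.61% and 3.5% of all units. They depended on how the variation between animals was estimated. From the 5 animals of a generation alone they were 490 and 385, and with array weights 498 and 322. For these alternatives no share of all units is given. The lowest adjusted p over all units was 0.38 in the P-generation. A logistic model of the summed reads, without a term for animals and with a difference of at least 10 points, called 258 exons higher and 367 lower in the P-generation (7.79% of members, 5.59% of all units) and 168 higher and 95 lower in the F3-generation (3.28%, against 2.28%). Without C14, limma called 291 exons in the P-generation, 67 of them higher, and 68 for the difference between the generations; the lone vehicle control is then C8, which limma assumes to vary like the other animals.

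Most exons differed little. The difference was under 5 points in 73.5% of the 8026 exons in the P-generation and in 86.0% in the F3-generation, with medians of -0.58 and 0.12 points. It reached 10 points in 803 exons of the P-generation (351 higher and 452 lower) and in 271 of the F3-generation (160 and 111). These were 10.0% and 3.4% of members, against 7.2% and 2.3% of all units. Without C14 the 803 became 1754, and without F3C30 the 271 became 850. Groups did not overlap in 476 exons higher (5.93%, against 6.29% of all units) and 1138 lower (14.2%, against 12.9%) in the P-generation, and in 819 higher (10.2%, against 10.4%) and 662 lower (8.25%, against 7.79%) in the F3-generation. These shares lay close to those of all coding exons. Groups were apart in the same direction in both generations in 47 exons higher (0.586%, against 0.686% of all units) and 103 lower (1.28%, against 1.06%). They were apart in opposite directions in 47 that were higher (0.586%, against 0.532%) and 130 that were lower (1.62%, against 1.41%) in the P-generation.

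The exons with the largest differences in the P-generation were taken from the 1318 whose groups did not overlap and whose animals each had 20 or more reads per CpG on average. The lowest after decitabine was an exon of Inppl1, which encodes the phosphoinositide phosphatase SHIP2 (chr7:101823893-101824559, 5 CpGs), with 38.6% in C14 and 68.0% in C8 against 18.6%, 11.8% and 17.4% in D10, D11 and D13. The F3 animals were between 32.5% and 58.3%. The log2 ratio was lower by 2.22 (0.49 SE, limma adjusted p = 0.38). Acp7, an acid phosphatase gene (chr7:28616481-28616663), was at 65.7% and 80.6% against 60.8%, 33.3% and 15.5%. Zfp628, a zinc finger gene (chr7:4918781-4921894), was at 72.5% and 92.4% against 63.7%, 56.4% and 41.1%. In the remaining 2, Zswim4 (chr8:84223671-84223925) and Slc2a9, the urate transporter gene (chr5:38477395-38477493), C8 was far above all others. Zswim4 was at 49.5% in C14 and 95.8% in C8, against 45.8%, 37.5% and 40.1%. Slc2a9 was at 31.6% and 81.5%, against 30.4%, 30.9% and 19.3%. Without C8 the differences were -22.6 points in Inppl1, -29.2 in Acp7, -18.8 in Zfp628, -8.4 in Zswim4 and -4.7 in Slc2a9. Without C14 those of Zswim4 and Slc2a9 were -54.7 and -54.6 points. The limma adjusted p-values of all 5 were between 0.38 and 0.56.

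The highest after decitabine was the last coding exon of Zfp180, a zinc finger gene (chr7:24104405-24106122, 6 CpGs), with 62.4% in C14 and 31.4% in C8 against 74.3%, 84.2% and 70.9%. Disc1, a scaffold gene (chr8:125087454-125088448), was at 32.7% and 33.4% against 62.1%, 84.4% and 40.0%, so that here both vehicle control animals were alike and the treated ones were not. Scn8a, a neuronal sodium channel gene (chr15:101015624-101016094), was at 21.1% and 5.8% against 32.2%, 38.1% and 52.3%, with a log2 ratio higher by 2.55 (0.61 SE, limma adjusted p = 0.38). In Acly, the ATP citrate lyase gene (chr11:100523440-100523598), and Otop3, a proton channel gene (chr11:115339318-115339731), C8 stood alone. Acly was at 75.2% in C14 and 35.2% in C8, against 81.0%, 84.8% and 83.6%, and Otop3 was at 87.2% and 36.7%, against 87.5%, 88.5% and 87.6%. Without C8 the differences were 14.1 points in Zfp180, 29.5 in Disc1, 19.8 in Scn8a, 8.0 in Acly and 0.6 in Otop3. Disc1 rested on D11 in part, with 18 points without it. Without C14 the differences were 45 points in Zfp180, 47.9 in Acly and 51.2 in Otop3. Arhgef18, which holds the called CpG given above, was at 50.9% and 83.1% against 43.0%, 45.4% and 41.4% over 14 CpGs (chr8:3451815-3452285), a difference of -23.7 points, or -7.6 without C8 and -39.8 without C14.

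The F3-generation exons came from 1210 that met the same conditions. St6galnac6 (chr2:32614781-32615187, 5 CpGs) was at 42.9% in F3C30 and 63.1% in F3C9, against 22.7%, 26.5% and 32.8% in F3D1, F3D31 and F3D7, a difference of -25.6 points, or -15.5 without F3C9. Dusp5, a phosphatase gene for ERK kinases (chr19:53537457-53537676), was at 92.0% and 94.6% against 74.3%, 66.3% and 73.9%, whereas the P animals were between 69.2% and 96.1%. Vsx1, a homeobox gene of the retina (chr2:150684411-150684588), was at 39.1% and 43.0% against 22.8%, 21.8% and 20.2%. In Dusp5 and Vsx1 the pairs of controls were within 4 points of each other in the values given, and leaving out either moved the difference little, to between -20.5 and -23.1 points in Dusp5 and between -17.5 and -21.4 in Vsx1. Ppargc1a, the coactivator gene of mitochondrial biogenesis (chr5:51473496-51474411), was at 28.1% and 55.8% against 24.9%, 19.8% and 22.8%, a difference of -19.5 points, or -5.6 without F3C9 and -33.3 without F3C30. Tbc1d9, a gene with a Rab GTPase-activating domain, had 1 exon (chr8:83242522-83242672) that was lower in both generations. It was at 47.0% and 69.0% against 36.0%, 39.0% and 35.7% in the P-generation and at 43.8% and 61.2% against 30.7%, 32.4% and 29.5% in the F3-generation. In both generations the higher control was of the same line, C8 and its descendant F3C9. This did not hold in every named exon. In Inppl1 C8 was highest at 68.0% and F3C9 was the lowest F3 animal at 32.5%. In Zfp180 C8 was lowest at 31.4% and F3C9 was the highest F3 animal at 79.9%. In Tbc1d9 the difference of -21.1 points in the P-generation was -10.1 without C8 and -32.2 without C14. That of -21.6 points in the F3-generation was -13.0 without F3C9. Another of its exons (chr8:83234112-83234373) was among the highest in the F3-generation, with 47.3% and 34.7% against 68.5%, 61.2% and 56.4%.

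Among the exons higher in descendants of treated males, Stard3, a cholesterol transfer gene of endosomes (chr11:98379973-98380066), was at 69.0% and 44.2% against 80.6%, 79.4% and 84.3%. Nos2, the inducible nitric oxide synthase gene (chr11:78956496-78956644), was at 50.3% and 21.3% against 53.4%, 63.1% and 65.2%. Padi4, a peptidylarginine deiminase gene (chr4:140763395-140763462), was at 55.9% and 38.8% against 73.7%, 59.7% and 77.5%, and the exon shared by Adamts9 and Gm15737, which overlap on opposite strands (chr6:92879656-92879970), was at 71% and 51.9% against 82.6%, 90.5% and 78.5%. F3C9 was the lowest F3 animal in all 4. Without it the differences were 12.5 points in Stard3, 10.3 in Nos2, 14.4 in Padi4 and 12.9 in Adamts9. Without F3C30 that of Nos2 was 39.2 points. The limma adjusted p-value of each named exon in the F3-generation was 1.0. In the P-generation, C8 was at 15.0% in Nos2 and 5.1% in Padi4, and the other P animals were between 40.2% and 57.4% in Nos2 and between 38.1% and 71.7% in Padi4.

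**Figure D5:**
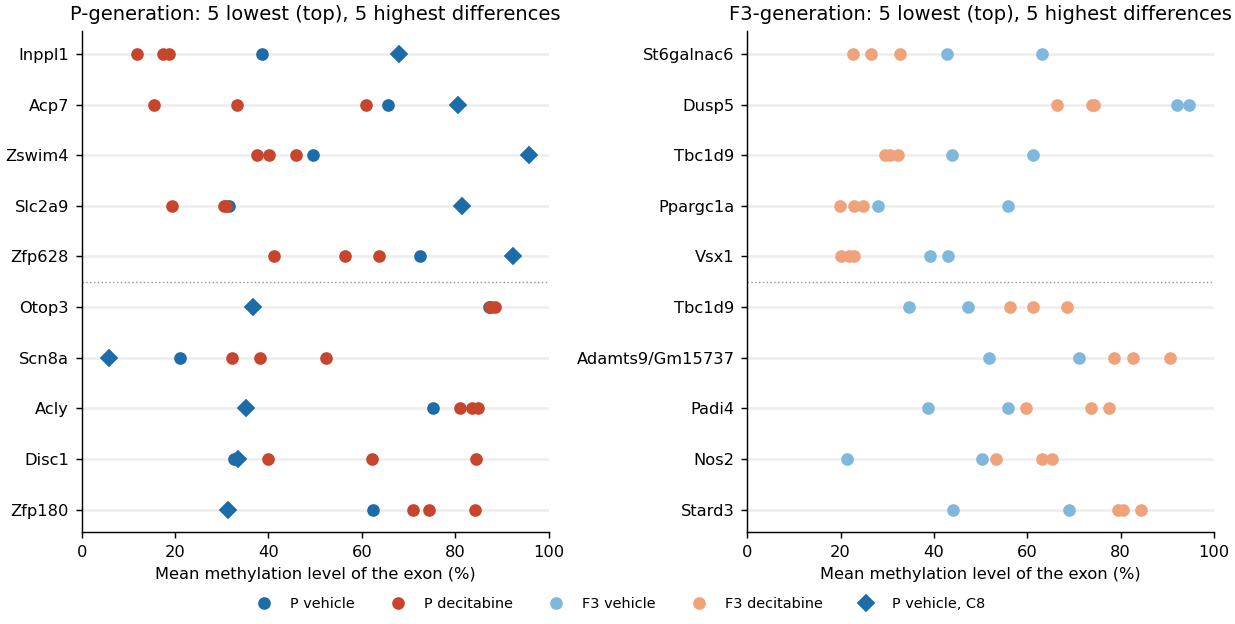
Mean methylation level (x axis, percent) in the animals of a generation for the 5 exons lowest and the 5 highest after decitabine (left, P-generation) and in descendants of treated males (right, F3-generation). They were taken among exons whose groups do not overlap and whose animals each had 20 or more reads per CpG on average. Each point is 1 animal, with C8 as a diamond. In Zswim4, Slc2a9, Acly and Otop3 the other vehicle control animal lies near the treated animals.

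Calls in the gene groups are given beside the shares over all members, 0.625% higher and 0.768% lower in the P-generation and 0.232% and 0.15% in the F3-generation. C2H2 zinc finger genes had 23 CpGs higher (1.18%) and 20 lower (1.02%) of 1957 in the P-generation and 5 and 3 in the F3-generation. In the P-generation, potassium channel genes had 6 higher (1.16%) and 0 lower of 518, and calcium channel genes 8 higher (2.05%) and 1 lower of 391. In the F3-generation, laminin and Adamts genes had 7 higher (2.13%) and 1 lower of 328, and myosin heavy chain and kinesin genes 8 higher (1.09%) and 0 lower of 735. No test was made of these shares, and CpGs of 1 exon share reads. Hox genes had 1 call of 324 in each generation, and DNA methyltransferase and Tet genes had 0 of 102 in both. The median exon difference of a group was between -2.1 points (DNA methyltransferase and Tet genes, 15 exons) and 0.6 points (potassium channel genes) in the P-generation, and between -0.7 and 1.2 points in the F3-generation, beside medians of -0.58 and 0.12 over all 8026 exons.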

How the data were processed

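RRBS libraries of spermatozoal DNA from 10 mice were analysed. Per the labels' processing notes and the paper's methods, the authors used CASAVA 1.8.2, Trim Galore 0.3.3, cutadapt 1.1 and Bismark 0.10.1 with mm10 and deposited, for each animal and CpG cytosine, the methylated and unmethylated read count written as a pair, without normalization or filter and with strands listed separately. Strands were summed here, and levels are methylated over all reads. Coding features came from GENCODE vM21 and sequence from GRCm38, the sequence of mm10, in which every listed autosomal cytosine was a CpG. Exon levels are means over CpGs, and limma 3.58.1 in R 4.3.3 was fitted to log2((methylated+1)/(unmethylated+1)) of summed exon counts, for 4 group means, with a trend and Benjamini-Hochberg adjustment over 14280 units. The logistic model was tested by likelihood ratio over 892267 CpGs with scipy 1.17.1 under Python 3.11.15.

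Near a level of 50%, the 95% Wilson interval ran from 34.8% to 65.2% at 38 reads, the median over all CpGs of the least covered animal, and from 23.7% to 76.3% at 10 reads. Pairs of animals of a group differed by more than counting error, with a mean chi-square per CpG between 2.35 and 4.93 (1 is expected) and of 9.17 for C14 and C8. Members, gene groups and markers were chosen with earlier results of these data known. The named exons were the 5 with the largest rise and the 5 with the largest fall per generation (groups apart, 20 reads per CpG), the called CpG with the largest rise and fall under these conditions, the 5 with the largest SD, the 5 with the most CpGs, the 3 with the most CpGs under 10% and over 90%, and those of Arhgef18, Mex3a and Egln2 if members. Alternatives were 20 reads, 10 reads per strand, an upper coverage limit, thinning, transcript starts, 5 kb, pooled reads, means over exons, overdispersion, limma per CpG, 10 points, group means of levels, 1 generation alone, array weights, a pseudocount of 0.5, percent levels, summed logistic models, 5 CpGs per exon, and each animal left out. The tests were checked on simulated counts in simpler settings than these data. Simulated CpGs had no variation between animals and were called at 10 points. Simulated exons had a set variation between animals that was not taken from these data. The check therefore does not show how the tests perform at the variation seen here.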

Additional observations from a re-analysis of the deposited data

Results flagged for a closer look

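An exon of Ppargc1a was higher after decitabine in the P-generation by 18 points and lower in descendants of treated males by 19.5 points, each time with groups that did not overlap. The differences were 37.5 points apart. The log2 ratio differed between the generations by 2.86 (0.75 SE), which did not pass in limma (adjusted p = 0.779). Leaving out F3C9 moved the difference of the F3-generation to -5.6 points, and leaving out F3C30 moved it to -33.3 points.

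An exon of Sdsl was lower by 50.3 points after decitabine and higher by 8.1 points in the F3-generation, also with groups apart, so that the difference of the differences was -58.4 points. Its interaction in limma was -4.97 on the log2 scale (1.73 SE, adjusted p = 0.779). C8 was at 100.0% in this exon, and the difference of the P-generation was -20.1 points without it. No group had 4 or more animals, so single animals were not tested as outliers within groups.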

How the results depend on the processing

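The within-animal comparisons of coding level with introns, codon base, exon order and CpG density kept direction and call under each alternative tried, though coding minus intron went from -9.25 to -16.69 points with transcript starts. The lower spread in coding exons than in introns passed with transcript starts as the distance (-0.14 points, exact sign-flip permutation p = 0.0332) and without D13, with -0.156 to -0.083 points over the animals left out. The mean difference was between -1.27 and -0.021 points in the P-generation and between -0.38 and 0.76 in the F3-generation with 1 animal left out. Fewer CpGs were kept with 20 reads and with transcript starts (41456 members with the latter, against 65911). Counts under these 2 rules therefore show by themselves no change in the share called. Called CpGs numbered 510 and 128 (P- and F3-generation) with 20 reads, 5 and 0 at 10 reads by thinning, and 2771 and 1189 at 10 points. They numbered 0 and 0 with overdispersion, where the test gave few small p-values and cannot show that no CpG differs. Called CpGs numbered 0 and 0 with limma, and 640 and 165 with transcript starts. With 1 animal left out they numbered 418 to 5129 and 76 to 1384. Exons called by limma remained at 0 in both generations except 291 in the P-generation without C14 (0 to 291), with 0 to 68 for the difference between generations; the summed logistic model called 625 and 263. Of the 211 alternative values of 21 named exon differences, 0 changed sign and 30 moved by more than the spread between animals. All 21 exons had groups that did not overlap, so leaving out 1 animal could not change a sign. Several other alternatives kept nearly the same reads, so the count of sign changes says little about stability. Within a generation no paired analysis was possible because each line of descent lies in 1 group. With the line of descent as a block, chosen after seeing the data, limma called 0 exons for the difference between generations (612 at an unadjusted p under 0.05), and with F3D1 and F3D31 averaged it called 0 in the F3-generation (184). Depth limits single CpGs, and 2 vehicle controls per generation limit each group comparison.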

Other observations

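Exons of Mex3a, which encodes an RNA-binding protein, and Egln2, an oxygen-sensing prolyl hydroxylase gene, lay within 2 kb of an annotated gene start, so that their CpGs were no members. The genes were chosen with their values known. The larger Mex3a exon (chr3:88536073-88537178, 17 CpGs) was at 58.7% in C14 and 58.8% in C8, against 37.6%, 28.3% and 28.9% in D10, D11 and D13, and between 44.6% and 62.6% in the F3-generation. The Egln2 exon (chr7:27164620-27165498, 3 CpGs) was at 67.5% and 49.1% against 31.6%, 22.9% and 25.3%, and between 50.2% and 65.8% in the F3-generation. As in Fiz1 and Rest, both vehicle control animals and the F3 animals lay above the treated animals in both exons.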
